A study of Mus musculus with 24 samples.

Results

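The prostaglandin and leukotriene pathway was followed here through 10 genes: Pla2g4a, Ptgs1, Ptgs2, Ptges, Ptgis, Hpgds, Alox5, Alox5ap, Lta4h and Ltc4s. They were taken by symbol as 9 enzymes of the pathway and the partner protein of 1 of them (Alox5ap), with earlier results of these data known. Each of the 10 symbols matched 1 identifier among the 41388 Ensembl mouse genes counted, and all 10 genes passed the filter on low counts on each day. The data are read counts from RNA sequencing of a portion of the heart of wild type Balb/c mice (BALB/cAnNCrl in the study's methods), which were young adult males. In experimental autoimmune myocarditis (EAM), mice received a myosin heavy chain peptide, 100 µg in each injection, in 200 µl of an emulsion of SCFA (the labels' name for the adjuvant) with PBS on day 0 and day 7. Control mice received SCFA with PBS and no peptide on the same days, and both groups also received PTX (pertussis toxin) on day 0, so the controls are immune-stimulated and not untreated. Hearts were taken at day 10, day 15 and day 21 (D10, D15 and D21), with 4 EAM and 4 control hearts on each day and 24 in all. According to the study's methods, samples were picked so that the hearts showed inflammation as far as possible, so the EAM groups are not a random sample of immunized mice. Nothing states that replicates are more than separate hearts of 1 experiment, and the p-values measure the spread between these hearts.

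Prostaglandins and leukotrienes are short-lived lipid mediators made from arachidonic acid, which phospholipases release from membranes. Cyclooxygenases turn arachidonic acid into prostaglandin H2, and terminal synthases turn that into prostaglandin E2, prostacyclin, prostaglandin D2 or thromboxane. In the other branch, 5-lipoxygenase, helped by its partner protein FLAP, makes leukotriene A4, which is then turned into leukotriene B4, a strong attractant of neutrophils, or into leukotriene C4, the first of the cysteinyl leukotrienes. In the heart, prostacyclin is known chiefly as a product of vessel walls, while leukotrienes are made chiefly by leucocytes.

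The promoters of the genes the results turn on are shown first, as RefSeq windows of the mouse build GRCm38.p6 that hold the 250 bases before the annotated start. A window was given for 8 of the 10 genes, and Alox5ap and Ptgis had none. The motifs searched on both strands were the TATA box TATAAA, the core GAGGAA that is bound by PU.1, an ETS factor of myeloid cells, the cAMP response element TGACGTCA, the AP-1 site TGANTCA and the κB site of NF-κB. GAGGAA stood in the windows of 6 of these 8 genes (Ptgs1, Ptgs2, Ptges, Hpgds, Alox5 and Lta4h), against 23.3% of 32851 windows of all genes. Of these genes' windows, TATAAA occurred only in that of a second, downstream start of Pla2g4a, and the other 3 motifs in none of the 8 genes' windows, against 12.4% of all windows for the TATA box, 1.55% for the cAMP response element, 6.75% for the AP-1 site and 0.14% for the κB site. No window held more than 1 match, so no matches overlapped. A match describes the letters and is not a shown binding site. In the 4 windows printed, 5′ to 3′ along the gene, capitals mark GAGGAA. They are the cyclooxygenases Ptgs2 (chr1:150099781-150100030, + strand) and Ptgs1 (chr2:36230176-36230425, + strand), then Alox5 (chr6:116461179-116461428, - strand) and Pla2g4a (chr1:149961291-149961540, - strand), whose window holds none of the motifs.
Ptgs2: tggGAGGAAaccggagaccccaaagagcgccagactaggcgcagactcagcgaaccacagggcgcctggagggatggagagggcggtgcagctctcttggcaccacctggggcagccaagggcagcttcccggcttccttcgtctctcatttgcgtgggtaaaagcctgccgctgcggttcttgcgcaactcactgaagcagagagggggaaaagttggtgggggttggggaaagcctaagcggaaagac
Ptgs1: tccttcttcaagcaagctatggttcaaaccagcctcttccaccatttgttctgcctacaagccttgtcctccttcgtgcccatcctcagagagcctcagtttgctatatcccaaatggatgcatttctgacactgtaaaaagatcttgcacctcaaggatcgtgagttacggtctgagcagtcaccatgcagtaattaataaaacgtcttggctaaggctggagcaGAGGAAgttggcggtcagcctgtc
Alox5: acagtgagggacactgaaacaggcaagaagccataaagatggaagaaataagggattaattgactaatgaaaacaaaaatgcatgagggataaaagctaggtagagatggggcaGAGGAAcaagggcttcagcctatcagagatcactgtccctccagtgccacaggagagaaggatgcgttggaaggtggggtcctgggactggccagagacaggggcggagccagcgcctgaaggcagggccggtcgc
Pla2g4a: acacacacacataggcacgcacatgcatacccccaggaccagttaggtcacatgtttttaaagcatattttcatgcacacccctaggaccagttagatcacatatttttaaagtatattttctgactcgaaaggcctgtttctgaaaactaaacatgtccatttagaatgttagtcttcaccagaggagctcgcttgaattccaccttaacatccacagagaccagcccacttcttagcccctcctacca
The match begins 247 bases before the start in Ptgs2, 24 in Ptgs1 and 136 in Alox5.

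Total counts per library lay between 15814863 and 24980864, and 3 reads, the limit that a count of 0 allows, were 0.120 to 0.190 counts per 1000000 counted reads (CPM) in a single library. Levels below are CPM after TMM normalization over the 24 libraries, with mean ± SD of 4 hearts. A gene was called when edgeR's quasi-likelihood test gave a Benjamini-Hochberg false discovery rate (FDR) under 0.01 over all genes of the day together with at least a 2-fold change. Some hearts stand apart. D10 EAM replicate 1 had 194 CPM of Ptprc, the gene of the leucocyte surface protein CD45, and D21 EAM replicate 3 had 48.9 CPM, the lowest of its group. The 4 D21 EAM libraries carry 1 library code and the other 20 libraries another, so at D21 the code and EAM cannot be told apart. The share of mitochondrial reads was 3.19 to 4.31% in D15 EAM and 6.10 to 7.14% in D15 control hearts. All 6 defining cardiomyocyte markers were read in every heart, and their summed level was 21845 to 26029 CPM in D15 control and 6007 to 15838 CPM in D15 EAM hearts. In pieces of tissue, fewer cells of a type and less RNA per cell cannot be told apart.

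At D15 Pla2g4a, Ptgs2 and Ptges, which act from the release of arachidonic acid to prostaglandin E2, and the FLAP gene Alox5ap were higher in EAM hearts, while no difference was detected for 5-lipoxygenase itself. They were called, 4.50-fold, 13.4-fold, 2.83-fold and 10.5-fold higher. Of the 4 further phospholipases tested 2 were called lower and none higher, and of 6 further prostanoid synthases 3 were called lower and 1 higher. Of all 15693 genes tested, 18.1% were called higher on that day, and 12.9% lower. A further 4 genes (Ptgs1, Ptgis, Hpgds and Lta4h) passed the FDR without a 2-fold change, making 8 of 10, against 33.2% of all genes higher at any fold. In the same 8 genes, all 4 EAM hearts were above all 4 controls, as in 34.5% of all genes. The median log2 fold change was 0.95 over the 10 genes and 0.016 over all genes tested. At D21, 1 gene was called higher (Alox5ap), against 4.13% of 15266 genes, and at D10 none was, as for all 15029 genes (0.0% called). The D21 calls over all genes depend on single hearts: 630 were higher and 177 lower, but leaving out any 1 control gave 0 higher, leaving out EAM replicate 1, 2 or 4 gave 4, 8 and 298 higher, and leaving out EAM replicate 3 gave 1477 higher. On that day limma-voom gave 80 higher and 135 lower, DESeq2 1364 and 369, the likelihood ratio test 1356 and 412, and the fit of all 24 hearts 1514 and 446. The D10 medians were 0.38 for the 10 genes and -0.0079 for all genes, and the D21 medians 0.50 and -0.0064.

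**Figure D1:**
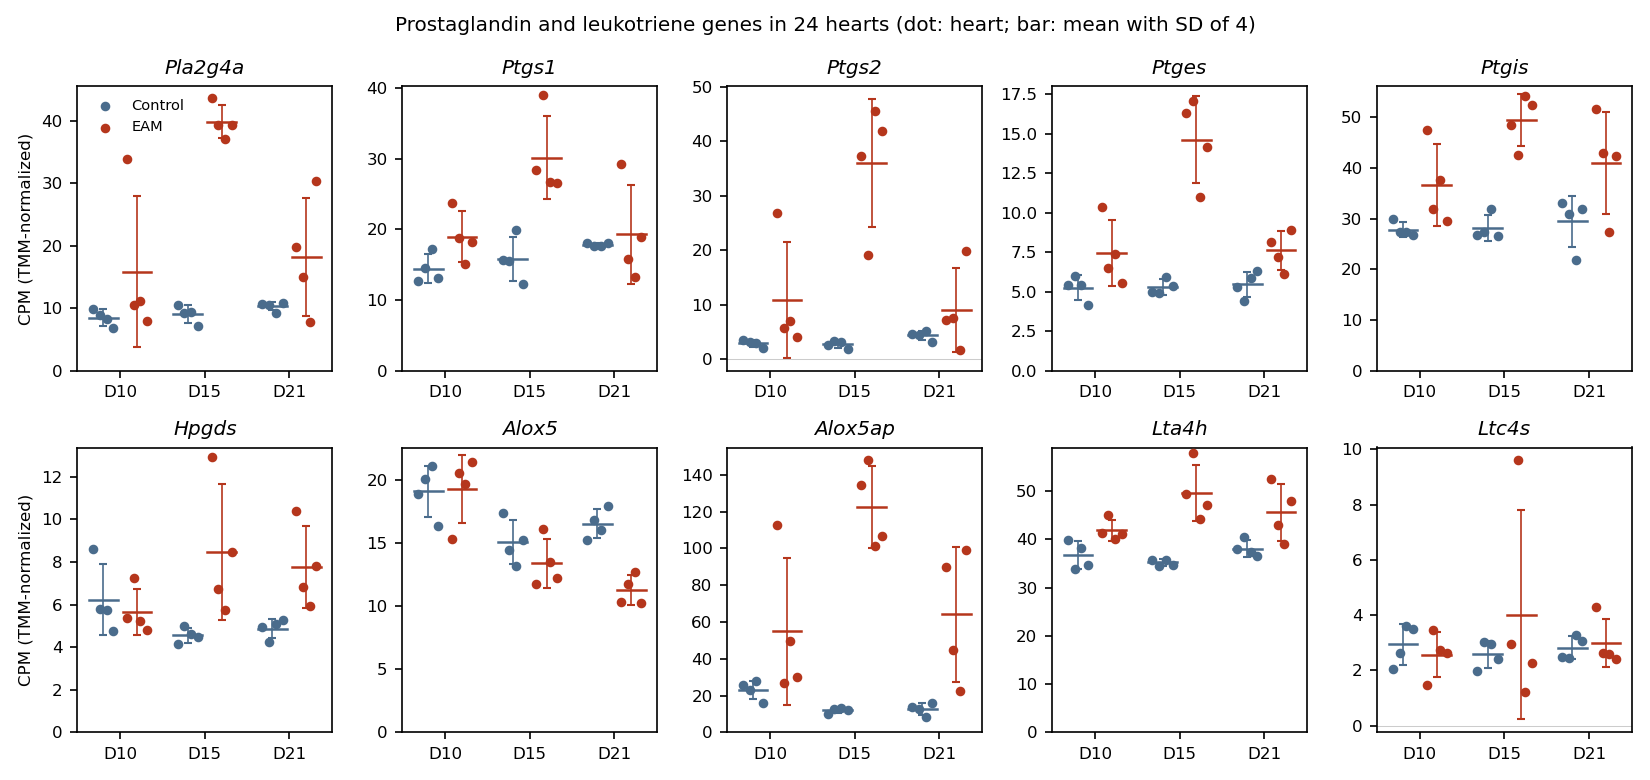
CPM of the 10 genes in each of the 24 hearts, by day (x axis) and group (blue control, red EAM), on linear axes. Each dot is a heart, and the bars are the mean and SD of 4 hearts; at D15 the 4 EAM hearts are above the 4 controls in every panel but Alox5 and Ltc4s.

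**Figure D2:**
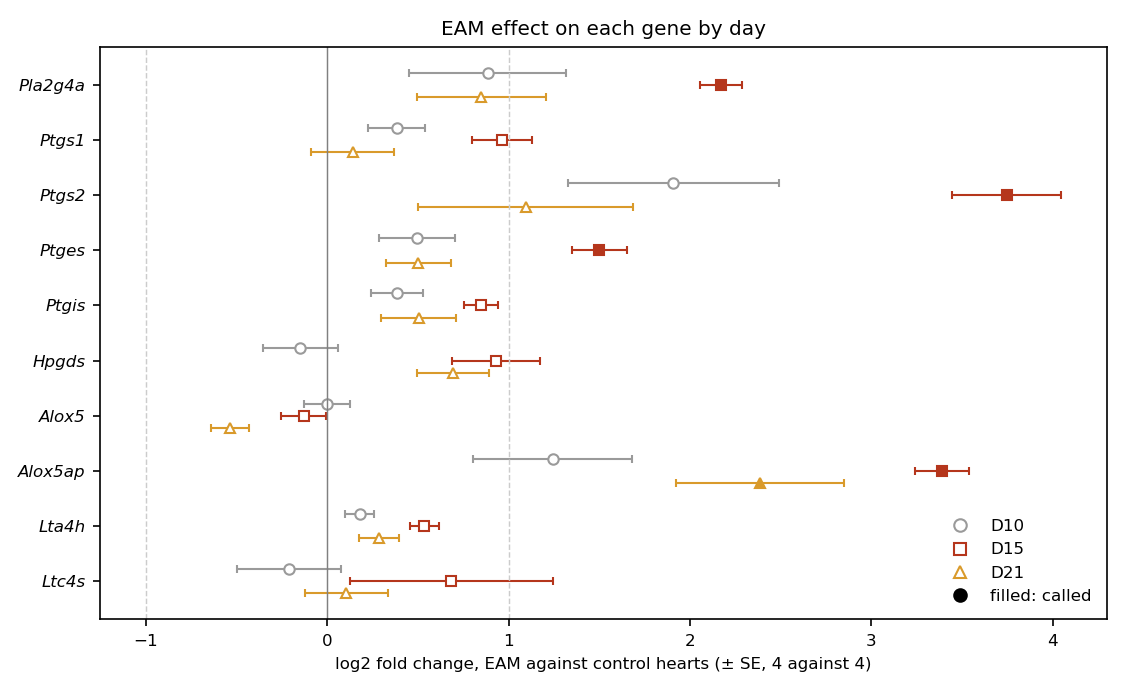
Log2 fold change of EAM against control hearts for each gene at D10, D15 and D21 with its standard error, from edgeR fits of 4 against 4 hearts. Filled symbols are called genes (4 at D15, 1 at D21) and the dashed lines mark a 2-fold change either way.

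Pla2g4a encodes cytosolic phospholipase A2, which releases arachidonic acid from membranes, and lies on chromosome 1 (chr1:149829618-149961290, - strand), next to Ptgs2. At D15 the EAM hearts had 43.6, 39.4, 37.1 and 39.3 CPM (replicates 1 to 4) and the controls 10.5, 9.21, 9.48 and 7.12 CPM. The groups were far apart and the EAM hearts close together, at 39.8 ± 2.69 against 9.07 ± 1.41 CPM. The log2 fold change was 2.17 ± 0.11 (SE, n = 4 and 4, adjusted p = 3.48e-07). At D10 the EAM hearts had 33.8, 10.5, 11.1 and 7.92 CPM against 9.93, 9.01, 8.37 and 6.81 CPM, so that replicate 1 alone was near the D15 level. The log2 fold change of 0.88 ± 0.43 (adjusted p = 0.341) was 0.19 without that heart. At D21 the values were 19.9, 15.0, 7.82 and 30.3 CPM in EAM and 10.8, 10.6, 9.32 and 10.8 CPM in control hearts, and the lowest EAM heart was below every control. The D21 log2 fold change of 0.85 ± 0.36 missed the threshold (adjusted p = 0.0944), and it was 1.09 and called (adjusted p = 0.0055) without EAM replicate 3 and 0.48 (adjusted p = 0.221) without EAM replicate 4.

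The 2 cyclooxygenases catalyse the same step but differ in use: Ptgs1 encodes COX-1, known as the constitutive form, and Ptgs2 encodes COX-2, known as the inducible form. Ptgs2 (chr1:150100031-150108227, + strand) had 37.3, 19.0, 45.6 and 41.9 CPM in the D15 EAM hearts and 2.60, 3.31, 3.16 and 1.88 CPM in the controls. Its log2 fold change of 3.75 ± 0.30 (adjusted p = 4.99e-06) was the largest of the 10 genes at D15. At D10 the EAM hearts had 26.8, 5.72, 6.90 and 4.12 CPM and the controls 3.48, 3.12, 2.86 and 2.05 CPM. All 4 EAM hearts were above the controls, as in 4.41% of all genes on that day, yet the log2 fold change of 1.91 ± 0.58 was not called (adjusted p = 0.328). Without EAM replicate 1 it was 0.94. By D21 the EAM hearts were spread over 7.10, 7.52, 1.67 and 19.9 CPM around controls at 4.68, 4.47, 5.12 and 3.12 CPM, a log2 fold change of 1.09 ± 0.59 (adjusted p = 0.177) that was 0.35 without EAM replicate 4 (adjusted p = 0.577).

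Ptgs1 (chr2:36230426-36252272, + strand) moved less. Its 4 EAM hearts had 30.1 ± 5.92 CPM at D15 (26.5 to 38.9) and its 4 controls 15.9 ± 3.10 CPM (12.3 to 19.9), with no overlap. The log2 fold change of 0.96 ± 0.17 (adjusted p = 0.000585) fell just short of 2-fold. Ptgs1 was above it, and called, when control replicate 3 or EAM replicate 1, 3 or 4 was left out. With total counts in place of TMM it was also called (1.12), the highest of 0.93 to 1.12 over the alternatives that kept all hearts. Ptgs1 is expressed by platelets among other cells. The heart with its highest level, D15 EAM replicate 2, also had the highest summed level of the 5 platelet markers, 67.8 CPM, against 30.6 to 34.2 CPM in the other 3. It was also the highest of its group for B cell, eosinophil, mast cell, mesothelial, monocyte and macrophage, and neutrophil marker sums, and the part of these cells in the value was not tested. At D21 the EAM hearts (13.2 to 29.2 CPM) lay on both sides of the controls (17.6 to 18.0 CPM), with a log2 fold change of 0.14 ± 0.23 (adjusted p = 0.652). At D10 the difference was 0.38 ± 0.16 (adjusted p = 0.328).

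The 3 terminal prostanoid synthases among the 10 genes each passed the FDR with higher levels in D15 EAM hearts, and of these 3 the inducible prostaglandin E synthase had the largest fold change. Ptges (chr2:30889471-30929863, - strand) encodes microsomal prostaglandin E synthase-1, which is known to work with COX-2. It had 16.3, 17.1, 11 and 14.2 CPM in D15 EAM hearts and 5.0, 4.90, 5.95 and 5.36 CPM in the controls, a log2 fold change of 1.5 ± 0.15 (adjusted p = 2.04e-05). Every EAM heart was above every control, and the gene was still called with any 1 of the 8 hearts left out. At D10 the EAM hearts had 10.4, 6.51, 7.41 and 5.54 CPM against 5.42, 5.99, 5.45 and 4.16 CPM, and at D21 8.18, 7.19, 6.15 and 8.94 CPM against 5.29, 4.42, 5.86 and 6.30 CPM. Both days showed overlap, with log2 fold changes of 0.49 ± 0.21 (adjusted p = 0.328) and 0.50 ± 0.18 (adjusted p = 0.0573).

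Ptgis (chr2:167191805-167240604, - strand) encodes prostacyclin synthase, an enzyme of vessel walls. D15 EAM hearts had 49.4 ± 5.10 CPM of it and the controls 28.2 ± 2.50 CPM. The log2 fold change was 0.85 ± 0.09 (adjusted p = 3.23e-05), under 2-fold. The D10 and D21 values were 0.38 ± 0.14 (adjusted p = 0.328) and 0.50 ± 0.21 (adjusted p = 0.0897). Its exons share 156 bases with 1110018N20Rik on the other strand, which had 1927 reads over the 24 hearts against 17320 for Ptgis, and the sources used here do not give the strand setting of the counting. Of the 5 endothelial markers 1 (Kdr) was called lower at D15, beside 12.9% of all genes. All 5 endothelial markers were lower with adjusted p between 1.04e-05 and 0.00399. Their sum was 637 to 707 CPM in EAM and 924 to 1223 CPM in control hearts, and the part of vessel cells in the Ptgis values was not tested.

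Hpgds (chr6:65117293-65144908, - strand) encodes the haematopoietic prostaglandin D synthase, known from mast cells, T cells and macrophages. Its D15 EAM hearts lay between 5.74 and 12.9 CPM and its controls between 4.17 and 5.02 CPM, a log2 fold change of 0.93 ± 0.24 (adjusted p = 0.00641). The highest value came from EAM replicate 1, without which the log2 fold change was 0.68 (adjusted p = 0.00522, and 0.00115 to 0.0186 over the 8 hearts left out in turn). It was above 2-fold, and called, without EAM replicate 2 (1.06, adjusted p = 0.00424) or EAM replicate 3 (1.11, adjusted p = 0.00115). The same held with total counts in place of TMM (1.08, adjusted p = 0.00282). Over the alternatives that kept all hearts, it was 0.85 to 1.08 with adjusted p up to 0.0166. At D21 all 4 EAM hearts (5.95 to 10.4 CPM) were again above the controls (4.23 to 5.27 CPM), as in 17.8% of all genes, with a log2 fold change of 0.69 ± 0.20 that was not called (adjusted p = 0.0292). At D10 it was -0.15 ± 0.21 (adjusted p = 0.699). Of the 7 mast cell markers, 6 were tested and 1 was called higher at D15, beside 18.1% of all genes. It was Hdc, the histamine-forming enzyme that other leucocytes also make (52.8 to 74.2 CPM against 5.0 to 5.70 CPM). Kit was higher (log2 0.52, adjusted p = 0.00489) and Mcpt4 lower (-0.69, adjusted p = 0.00635), both by less than 2-fold. The mast cell proteases Cpa3, Mcpt4, Cma1 and Tpsb2 lay between 0.824 and 2.47 CPM in the 8 hearts. The part of cell numbers in the Hpgds values was not tested.

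In the leukotriene branch, the FLAP gene was called higher at D15 and D21. The 5-lipoxygenase gene was not called on any day, and at D21 it was lower by less than 2-fold with an adjusted p near the threshold. Alox5ap (chr5:149264767-149288153, + strand) encodes FLAP, the membrane protein that presents arachidonic acid to 5-lipoxygenase. In D15 EAM hearts it was at 134, 148, 102 and 107 CPM, and in the controls at 10.1, 13, 13 and 12.1 CPM. Every EAM heart was several times above every control, and the log2 fold change was 3.39 ± 0.15 (adjusted p = 1.17e-07). At D21 it was at 89.9, 45.0, 22.3 and 99.4 CPM against 13.6, 12.8, 8.14 and 15.9 CPM, still with no overlap, and it was the gene called on that day at 2.39 ± 0.46 (adjusted p = 0.00947). That call sits at the threshold, since leaving out any 1 control, or EAM replicate 1, 2 or 4, gave adjusted p between 0.0151 and 0.0366, while leaving out EAM replicate 3 gave 0.000661. At D10 the EAM hearts had 113, 26.7, 49.7 and 30.2 CPM and the controls 25.5, 22.8, 27.9 and 16.0 CPM, a log2 fold change of 1.24 ± 0.44 (adjusted p = 0.328) that was 0.61 without EAM replicate 1.

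Alox5 (chr6:116410077-116461178, - strand) encodes 5-lipoxygenase, the enzyme that starts leukotriene synthesis. At D15 the EAM hearts had 11.8, 16.1, 13.5 and 12.2 CPM and the controls 17.4, 14.5, 13.2 and 15.2 CPM. The groups overlapped, with a log2 fold change of -0.13 ± 0.12 (adjusted p = 0.353) that turned to 0.020 with total counts in place of TMM. At D21 the EAM hearts had 10.3, 11.7, 12.7 and 10.2 CPM and the controls 15.2, 16.8, 16.1 and 17.9 CPM. All 4 EAM hearts were then below all 4 controls, as in 18.7% of all genes. The log2 fold change of -0.54 ± 0.10 passed the FDR (adjusted p = 0.00939) without reaching 2-fold. At any fold, 3.1% of all genes passed it in that direction and 4.71% in the other. A block for the replicate number moved the adjusted p to 0.0239. Leaving out any 1 heart but EAM replicate 3 gave adjusted p between 0.0152 and 0.0357, so this value too sits at the threshold. At D10 the groups were level at 19.2 ± 2.71 and 19.1 ± 2.04 CPM.

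Lta4h (chr10:93453411-93484875, + strand) encodes leukotriene A4 hydrolase, which makes leukotriene B4 and is present in most cells. It was at 44.3 to 57.8 CPM in D15 EAM hearts and 34.5 to 35.8 CPM in the controls, a small but even log2 fold change of 0.54 ± 0.08 (adjusted p = 0.000263). At D10 its EAM hearts (40.1 to 45.0 CPM) were just above the controls (33.9 to 40.0 CPM), at 0.18 ± 0.08 (adjusted p = 0.328), and at D21 they overlapped at 0.28 ± 0.11 (adjusted p = 0.0778). Ltc4s (chr11:50236461-50238616, - strand), the leukotriene C4 synthase, had the fewest reads of the 10 genes, 1470 over all hearts. Its D15 EAM hearts had 2.95, 9.59, 1.22 and 2.28 CPM and the controls 1.98, 3.01, 2.95 and 2.41 CPM. The mean was carried by replicate 2: the log2 fold change was 0.68 ± 0.56 (adjusted p = 0.290) with that heart and -0.19 without it. Replicate 2 also had the highest summed level of the 4 B cell markers, 11.5 CPM against 1.98 to 3.58 CPM in the other 3 EAM hearts. It was the highest of its group for platelet, eosinophil, mast cell, mesothelial, monocyte and macrophage, and neutrophil marker sums as well. The part of these cells in Ltc4s was not tested. The D10 and D21 log2 fold changes were -0.21 ± 0.29 (adjusted p = 0.686) and 0.11 ± 0.23 (adjusted p = 0.741), and 268 bases of its exons are shared with Gm26542 on the other strand, which had 56 reads.

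At D10, edgeR called none of the 10 genes, and DESeq2, limma-voom and the edgeR likelihood ratio test called none either. Over all genes DESeq2 called 48 higher and 4 lower, the likelihood ratio test 45 and 2, and limma-voom 0. At an unadjusted p under 0.05, 6 of the 10 were higher (Ptgs1, Ptgs2, Ptges, Ptgis, Alox5ap and Lta4h), against 9.71% of all genes, and none was lower. In all 6, the adjusted p was 0.328. For Pla2g4a, Ptgs1, Ptgs2, Ptges, Ptgis and Alox5ap, the D10 EAM heart with the highest value was replicate 1. Without it the log2 fold change was 0.25 for Ptgs1, 0.29 for Ptges and 0.23 for Ptgis. That heart was also the highest of its group for monocyte and macrophage markers (3242 CPM in sum, against 972 to 1728 CPM) and neutrophil markers (874 CPM, against 176 to 343 CPM), and for T cell, eosinophil, mast cell and mesothelial markers as well.

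Whether the EAM effect changed between days was tested in a fit of all 24 hearts. From D10 to D15 the effect on Alox5ap grew by 2.10 ± 0.58 on the log2 scale (adjusted p = 0.00728), and it was the 1 gene of the 10 called, against 5.38% of 16318 genes higher and 7.35% lower. These were 878 and 1199 genes, and 1017 and 831 with total counts in place of TMM. For Ptges the effects differed by 0.96 ± 0.26 (adjusted p = 0.00607), under 2-fold. The Alox5ap call was lost in 13 of the 16 fits that each left out 1 heart (adjusted p 0.000254 to 0.0168). Over these fits 0 to 4 of the 10 genes were called, most without D10 EAM replicate 1 (Pla2g4a, Ptgs2, Ptges and Alox5ap). In that fit the calls over all genes also went up, to 1999 higher and 1741 lower of 16275, and in the other 15 fits they were 486 to 1024 higher and 619 to 1709 lower. From D15 to D21 none was called, against 2.74% of all genes higher and 0.919% lower (447 and 150 genes, 243 and 229 with total counts, and 51 and 63 with a block for the replicate number). For Ptges the difference of the effects was -0.98 ± 0.25 (adjusted p = 0.00849), under 2-fold, and for Ptgs2 the difference was -2.65 ± 0.79 (adjusted p = 0.0173). At an unadjusted p under 0.05 there were 5 of 10 lower and none higher between D15 and D21, against 17.3% of all genes lower and 23.4% higher. DESeq2 and the likelihood ratio test each called 1 (Ptgs2) where limma-voom called none. Without D21 EAM replicate 4, both Ptges and Ptgs2 were called, and in that fit 1119 of all 16283 genes were called higher and 446 lower. The D15 and D21 effects on Alox5ap differed by -1.0 ± 0.58 (adjusted p = 0.20), so its lower D21 value is not shown to differ. From D10 to D21 no gene of the 10 was called by any of these tools, against 0.0735% of all genes called higher and 0.735% lower. At an unadjusted p under 0.05, 1 was higher (Hpgds) and 1 lower (Alox5), against 8.52% and 9.52% of all genes, shares near those of the 10.

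In control hearts none of the 10 genes was called between D10 and D15, D15 and D21 or D10 and D21 by edgeR, DESeq2, limma-voom or the likelihood ratio test, against 0.0919%, 0.0% and 0.214% of all genes. At an unadjusted p under 0.05, 2 were lower from D10 to D15 (Alox5ap and Alox5), none was past it from D15 to D21, and 1 was lower from D10 to D21 (Alox5ap). The shares of all genes lower at that p were 3.24%, 0.729% and 4.68%, and those higher 3.45%, 1.64% and 7.52%. Alox5ap was at 23.1 ± 5.13 CPM in D10 controls and 12 ± 1.40 and 12.6 ± 3.25 CPM in D15 and D21 controls, a log2 difference of -0.94 ± 0.42 (adjusted p = 0.662) from D10 to D15. The neutrophil marker sum was 130 to 246 CPM in D10 and 16.8 to 82.1 CPM in D15 controls, and the platelet marker sum 54.0 to 142 CPM and 12.2 to 16.1 CPM, both without overlap. The monocyte and macrophage sum overlapped, at 623 to 1298 CPM and 583 to 669 CPM, and the part of these cells was not tested.

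Levels of different genes can be set side by side only per length, here in CPM per kilobase of merged exons (RPKM, with exon lengths of the GENCODE M21 annotation). Over the 12 control hearts, Alox5ap (11.2 ± 4.37, SD, n = 12) and Ptgis (11.1 ± 1.22) had the highest means. Their order differed by day: Alox5ap was at 16.2 and Ptgis at 10.9 in D10 controls, with overlap, at 8.48 and 11 in D15 controls, with none, and at 8.87 and 11.5 in D21 controls, with overlap. Lta4h followed at 6.01 ± 0.356, then Ptgs1 at 4.13 ± 0.626, Alox5 at 4.11 ± 0.562 and Ltc4s at 2.75 ± 0.526. Pla2g4a was at 1.46 ± 0.210, Ptges at 1.36 ± 0.164, Hpgds at 0.813 ± 0.185 and Ptgs2 lowest at 0.725 ± 0.217. Neighbours in this order overlapped in range except Ptgis and Lta4h, Lta4h and Ptgs1, and Ltc4s and Pla2g4a. In D15 EAM hearts the same measure was 86.4 ± 15.6 for Alox5ap and 7.85 ± 2.57 for Ptgs2, which had thereby reached the level of Ptgs1 at 7.76 ± 1.52.

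A ratio of 2 genes within a heart does not depend on the scaling between libraries, and 4 such ratios were compared on each day, 12 in all, with an exact two-sided permutation test of 4 against 4 hearts. The smallest p this design can give is 0.0286, which 4 of the 12 ratios reached. Benjamini-Hochberg adjustment over the 12 tests turned it into 0.0857, so none passed 0.05. The log2 ratio of Alox5ap to Alox5 reads was 3.51, 3.2, 2.91 and 3.13 in D15 EAM hearts and -0.79, -0.15, -0.02 and -0.33 in the controls, an 11.4-fold difference. At D21 it was 3.12, 1.94, 0.81 and 3.28 against -0.16, -0.40, -0.98 and -0.17, a 6.57-fold difference. On both days every EAM heart was above every control (exact p = 0.0286, adjusted p = 0.0857). The ratio of Ptgs2 to Ptgs1 was 6.64-fold higher at D15, at 0.39, -1.03, 0.77 and 0.66 against -2.58, -2.23, -2.64 and -2.69 on the log2 scale (exact p = 0.0286, adjusted p = 0.0857). In 3 of the 4 EAM hearts the inducible form thus had more reads than the constitutive one, and in none of the controls. The ratio of Ptges to Ptgis was 1.55-fold higher at D15, with no overlap and the same exact p and adjusted p. The other 8 ratios overlapped between the groups (exact p from 0.0571 to 1.0), among them all 3 of Lta4h to Ltc4s, the enzymes that compete for leukotriene A4.

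**Figure D3:**
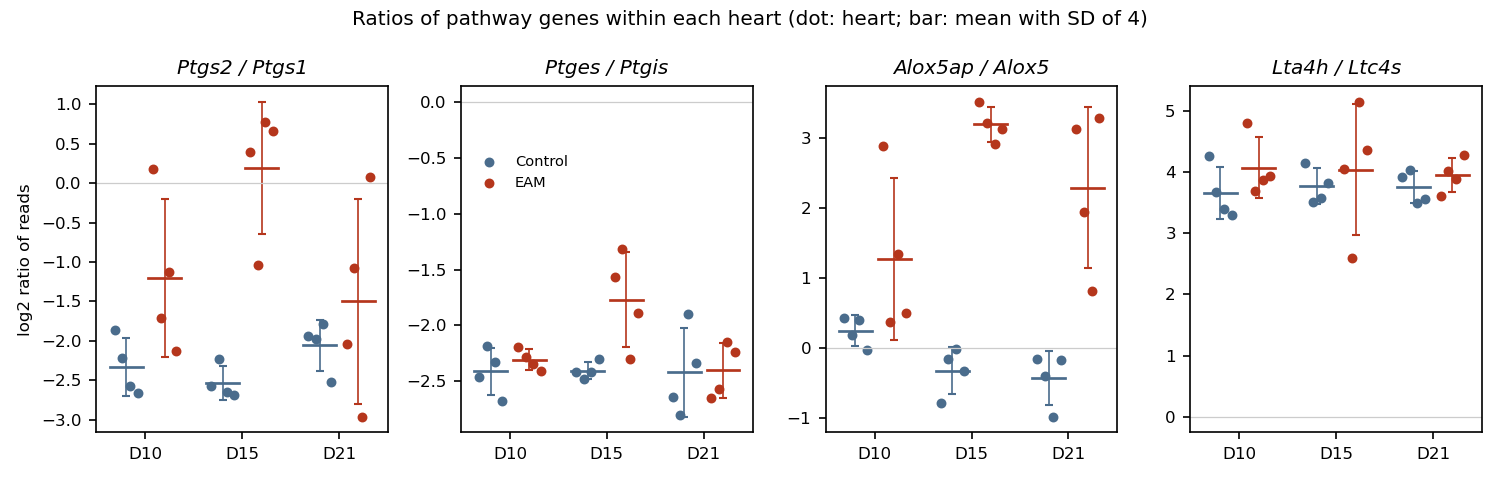
Log2 ratio of reads of 2 genes within each heart, by day (x axis) and group (blue control, red EAM). Dots are hearts and bars the mean and SD of 4; the EAM and control hearts are apart for Ptgs2 to Ptgs1 and Ptges to Ptgis at D15 and for Alox5ap to Alox5 at D15 and D21.

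At D15 and D21 the leucocyte gene Ptprc had a larger fold change than any of the 10 genes. It was 15.8-fold higher in EAM hearts at D15 (log2 3.98 ± 0.12, adjusted p = 1.43e-08) and 5.99-fold higher at D21 (2.58 ± 0.46, adjusted p = 0.00774). As a description with no test, each gene was divided by Ptprc in the same heart. At D15 the EAM hearts were then below the controls without overlap for 9 of the 10 genes, as for 94.4% of all genes tested, by -4.11 on the log2 scale for Alox5, -3.13 for Ptgis and -1.80 for Pla2g4a. Ptgs2 alone overlapped, with a difference of -0.28, and Alox5ap was next at -0.60. At D21 Alox5ap overlapped at -0.22 and the other 9 were below the controls, as were 89.7% of all genes, Ptgs2 included at -1.78. At D10 all 10 overlapped, and 2.77% of all genes were below, with Ptgs2 at 0.56 and Alox5ap at 0.07.

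**Figure D4:**
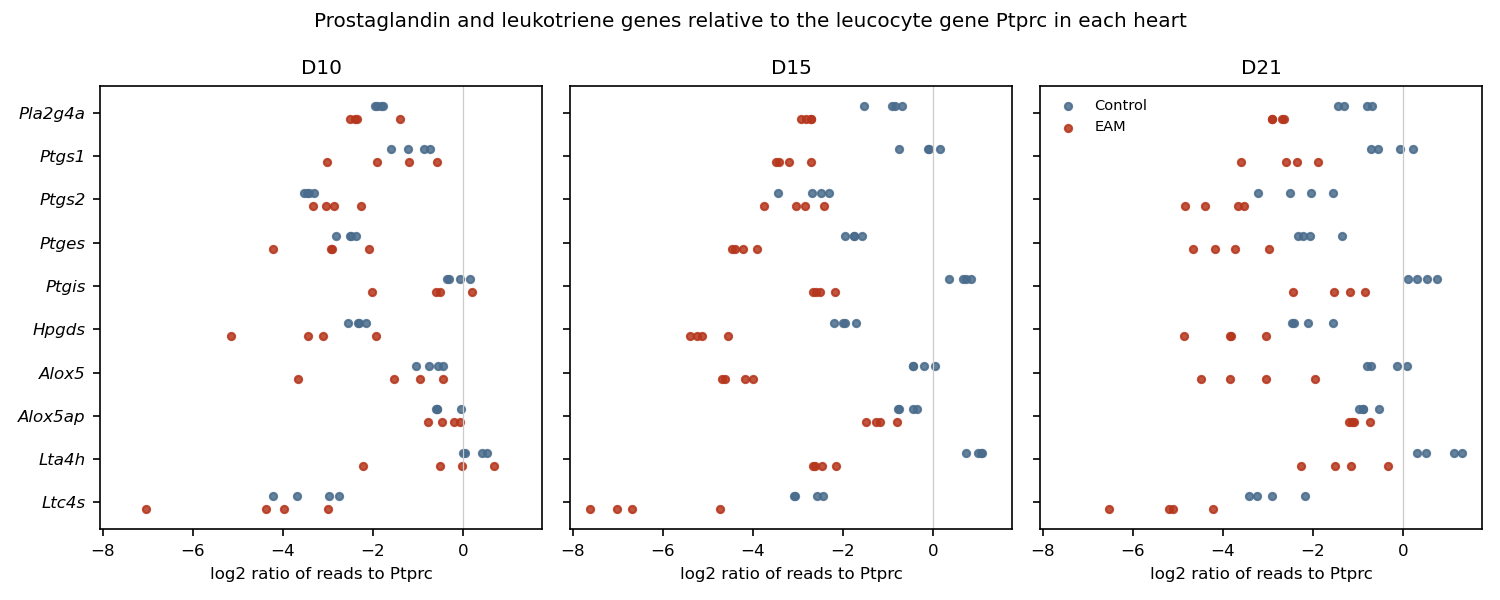
Log2 ratio of each gene's reads to Ptprc reads in each heart, 1 panel a day, with the same x axis in all (blue control, red EAM, 4 hearts each). At D15 the EAM hearts lie left of the controls for 9 genes and overlap them for Ptgs2; Alox5ap keeps the narrowest gap of those 9.

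The marker lists of the cell types that could carry these genes moved as follows at D15. Of all genes tested on that day, 18.1% were called higher and 12.9% lower. All 10 monocyte and macrophage markers were called higher (3726 to 5280 CPM in sum against 583 to 669 CPM), as were all 7 neutrophil markers (553 to 950 CPM against 16.8 to 82.1 CPM) and all 7 T cell markers (52.3 to 76.0 CPM against 2.47 to 3.72 CPM). Of the 6 fibroblast markers 1 was called higher (Col1a1), of the 3 B cell markers tested 1 (Cd79b), and of the 4 platelet markers tested 2 (Pf4 and Itga2b). Siglecf, called higher, was the only eosinophil marker tested, and it and all 7 T cell and 3 B cell markers tested passed the filter with the help of the EAM hearts, as did 2 of the 7 neutrophil markers (Ly6g and Retnlg) and 1 platelet marker (Gp1bb), so their calls are no independent count. The 4 eosinophil markers were together at 2.51 to 5.85 CPM in EAM and 0.0521 to 0.177 CPM in control hearts, where Epx had no read. Of the 4 smooth muscle markers 1 was called lower (Acta2), of the 6 cardiomyocyte markers 3 were called lower, and of the 3 mesothelial markers none was called. At D21, 6 of 10 monocyte and macrophage, 1 of 7 neutrophil, 7 of 7 T cell (4 of them with under 10 reads in a control heart) and 1 of 6 fibroblast markers were called higher, 1 mast cell marker (Mcpt4) was called lower, and at D10 no marker was called. Of all genes tested at D21, 4.13% were called higher and 1.16% lower. Leaving out any 1 D21 control heart gave 0 genes called higher, so the D21 counts of markers called higher depend on single hearts. The part of these cells in the pathway genes' values was not tested.

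Over the 24 hearts, the genes whose log2(CPM + 1) ran closest to each of the 10, among the 14217 genes whose mean reached 1 CPM, were taken as a description. The hearts share groups, days and, at D21, library codes. Alox5ap ran with Ms4a6d (Pearson's r = 0.996) and Rac2, a GTPase of blood cells (r = 0.992), and its r with Ptprc was 0.974. Ptgs2 ran with Pim1, a kinase induced by cytokines (r = 0.972), and 1810055G02Rik (r = 0.969). Pla2g4a ran with Plekho2 (r = 0.985) and Zc3hav1, an antiviral zinc finger protein (r = 0.982), Ptges with Ncstn (r = 0.971) and Cd38 (r = 0.966), and Ptgs1 with Slc2a13 (r = 0.922) and Stk26 (r = 0.918). For Ptgis the closest were Lmo4 (r = 0.942) and Ptpro (r = 0.935), for Lta4h Trf (r = 0.934) and Cant1 (r = 0.929), and for Hpgds Gm13710 (r = 0.889) and Cd83 (r = 0.868). Alox5 ran with Larp4 (r = 0.855) and against Ptprc (r = -0.55). Ltc4s had the weakest match, Kif3a (r = 0.761) and Fcna (r = 0.731), with r = 0.028 to Ptprc. Within the 12 control hearts alone, Alox5ap still ran with myeloid genes, C1qc (r = 0.982) and C5ar1 (r = 0.979), and Hpgds with Arhgap4 (r = 0.951) and Arrb2 (r = 0.939). Their r to Ptprc in the controls was 0.87 and 0.75. For Pla2g4a, Ptgs2 and Lta4h it was 0.0097, -0.13 and 0.18 in the controls, against 0.92, 0.89 and 0.82 over the 24 hearts. Alox5 had r = 0.66 with Ptprc in the controls, the opposite sign to that over all hearts.

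Of 41 other genes of the pathway, 35 were tested at D15, and 13 were called higher and 9 lower, beside 18.1% and 12.9% of all genes. Of the 35, 8 had under 10 reads in at least 1 control heart and entered with the help of the EAM hearts (Alox15, Cyp4f18, Cysltr2, Ggt1, Ltb4r1, Mgst2, Ptger2 and Ptger3), and 7 of these 8 were called higher. Of the other 27, 6 were called higher and 9 lower. At D21, 31 were tested, with 4 called higher and 1 lower (4.13% and 1.16% of all genes), and of the 3 that entered in the same way (Cyp4f18, Ltb4r1 and Ptger3) 1 was called higher. At D10, 31 were tested and none was called by edgeR's quasi-likelihood test, with 6 higher and 1 lower at an unadjusted p under 0.05, against 9.71% and 5.54% of all genes. The leukotriene receptors Ltb4r1, Cysltr1 and Cysltr2 were called higher at D15, and Ltb4r1 and Cysltr2 passed the filter only with the reads of the EAM hearts. Ltb4r1, the high-affinity leukotriene B4 receptor, was at 28.6, 35.2, 28.6 and 28.5 CPM in EAM hearts and 0.313, 0.590, 0.828 and 0.648 CPM in the controls, a log2 fold change of 5.69 ± 0.20 (adjusted p = 2.68e-08). Cysltr2, a cysteinyl leukotriene receptor, had 153 reads over the 4 EAM and 3 reads over the 4 control hearts, a ratio per total count of 41.2 with an exact 95% interval of 13.8 to 202 for counting error alone.

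Of 8 genes of leukotriene transport and conversion, 4 were called higher and 1 lower at D15, beside 18.1% and 12.9% of all genes. Of the 4, Dpep2 had 10 reads or more in every control heart, while Cyp4f18, Ggt1 and Mgst2 entered the test with the help of the EAM hearts. Cyp4f18, which inactivates leukotriene B4, was at 13 to 15.6 CPM in EAM and 0.208 to 0.885 CPM in control hearts (log2 4.87 ± 0.26, adjusted p = 4.02e-07). Dpep2, a dipeptidase that turns leukotriene D4 into E4, was at 24.5 to 76.2 CPM against 1.56 to 2.95 CPM (4.6 ± 0.37, adjusted p = 5.4e-06). Alox15, a lipoxygenase of the 12/15 type, rose from at most 0.365 CPM to 1.58 to 6.16 CPM (4.35 ± 0.72, adjusted p = 0.000439). It also entered the test with the help of the EAM hearts. Among 6 further prostanoid synthases the direction was split, with 1 called higher and 3 lower. Tbxas1, thromboxane A synthase, was the higher one, at 52.1 to 78.5 CPM against 2.97 to 5.31 CPM (4.05 ± 0.20, adjusted p = 1.97e-07), and the lower ones, named after their values were seen, were Ptges2, Ptgds and Cbr1. Of the 4 phospholipases tested 2 were called lower, of the 5 genes of prostaglandin transport and breakdown 2 were called higher and 2 lower, and of the 7 prostanoid receptors tested 2 were called higher and 1 lower.

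At D21 the genes called higher were Ltb4r1 (log2 4.10 ± 0.72, adjusted p = 0.00721), Dpep2 (3.60 ± 0.50, adjusted p = 0.00507), Tbxas1 (2.64 ± 0.51, adjusted p = 0.00935) and Ptgr1, which breaks down prostaglandins and leukotriene B4 (1.08 ± 0.21, adjusted p = 0.00934). Of these, Ltb4r1 entered the test with the help of the EAM hearts. Ptgfr, the prostaglandin F2α receptor, was called lower, with 4.43, 6.97, 7.48 and 2.76 CPM in EAM and 28.7, 33.4, 39.0 and 25.5 CPM in control hearts. Every EAM heart was far below every control, and the log2 fold change was -2.54 ± 0.29 (adjusted p = 0.00419). Over all genes, leaving out D21 control replicate 1, 2 or 3 gave 0 called in either direction. Leaving out control replicate 4 gave 0 higher and 9 lower. These D21 calls thus depend on single hearts. In the test of the difference between the D10 and D15 effects, 5 of 35 list genes were called higher (Tbxas1, Dpep2, Ptger4, Cysltr1 and Cysltr2) and 5 lower (Pla2g5, Pla2g12a, Ptgr2, Mgst3 and Ptgfr), against 5.38% and 7.35% of all genes. Cysltr2 had 3 reads over the D15 control hearts and 153 over the D15 EAM hearts, which carried it past the D15 filter. Its call is no independent count. Between D15 and D21, 3 of 35 were called higher at D21 (Ptgds, Pla2g12a and Ptgr2) and none lower, against 2.74% and 0.919% of all genes. Between D10 and D21 Ptgfr was called lower and none higher, against 0.735% and 0.0735% of all genes. The genes in these counts were named after their values were seen.

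**Figure D5:**
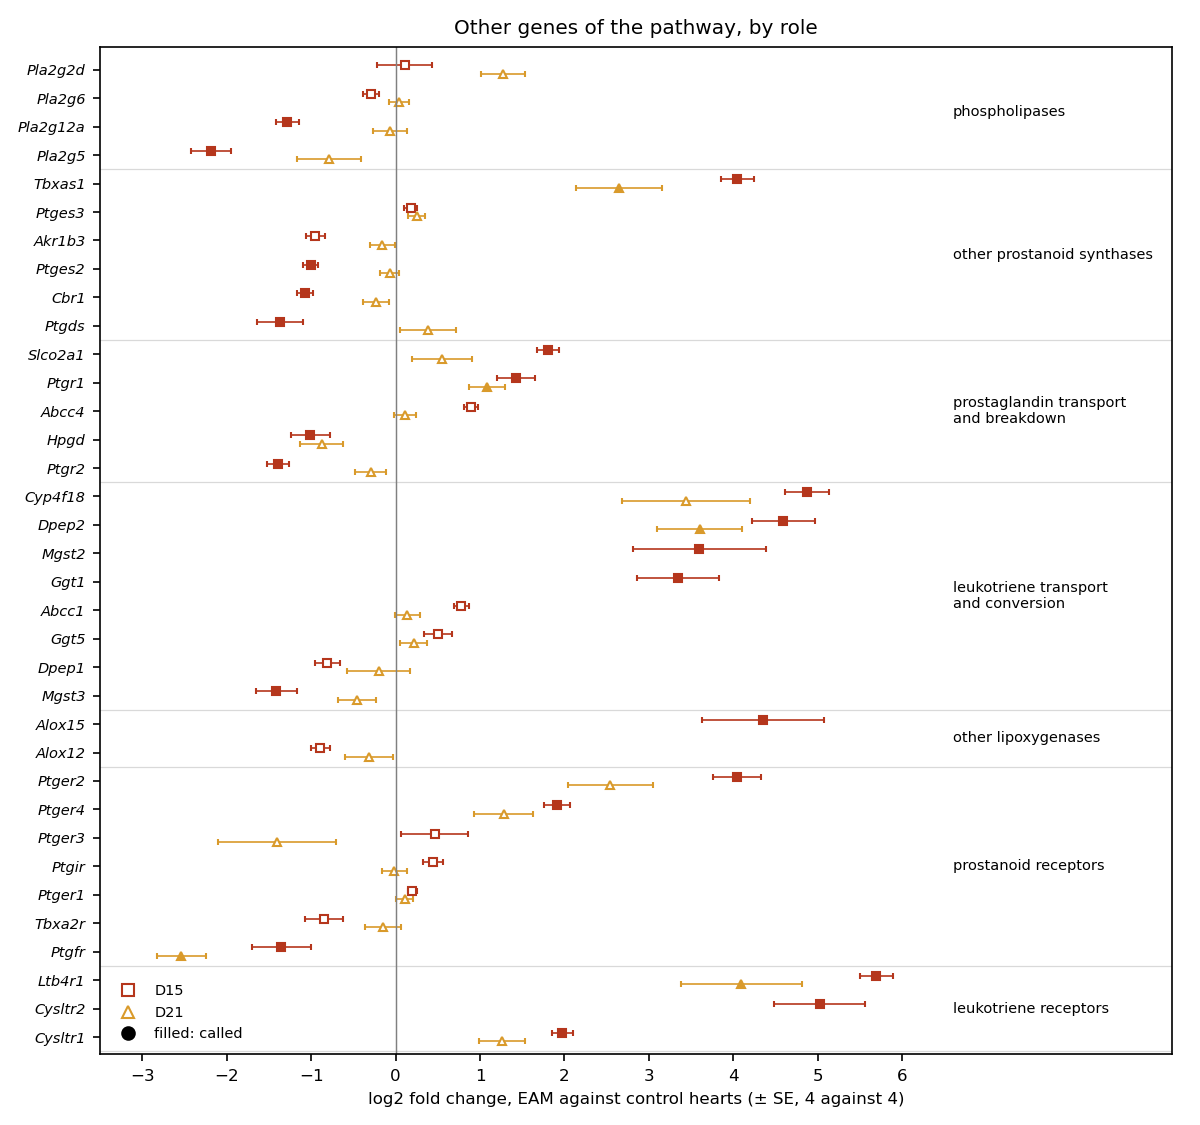
Log2 fold change of EAM against control hearts, with its standard error, for the other genes of the pathway tested at D15 (red squares) and D21 (yellow triangles), grouped by role. Filled symbols are called genes, 22 at D15 and 5 at D21; the Cysltr2 value depends on the prior count of the fit, Ltb4r1 is farthest to the right and Pla2g5 and Ptgfr farthest to the left.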

How the data were processed

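RNA was extracted from a portion of each of 24 hearts, and directional libraries were sequenced as paired ends. Per the labels and the study's methods, the authors deposited read counts per Ensembl gene, made with HISAT2 2.0.4 on GRCm38, Picard removal of duplicates and featureCounts, and the counts were not normalized. The sources used here do not give the strand setting of the counting. The 92 spike-in features had no reads and were left out.

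Each day's 8 hearts were tested with edgeR 4.0.16 (TMM, quasi-likelihood test, R 4.3.3) over genes that had 10 or more reads in 4 or more samples, with Benjamini-Hochberg adjustment, and differences between days in 1 fit of all 24 hearts. Calls needed an FDR under 0.01 together with a change of 2-fold or more. The SE was taken as the log2 fold change divided by the root of the F statistic. Ratios within a heart had 0.5 reads added, and their exact permutation tests used all 70 splits. The fits were also run on simulated counts. These gave every gene the same dispersion and held no outlying heart, so they do not show how the fits treat hearts that stand apart.

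The alternatives were DESeq2 1.42.0, limma-voom (limma 3.58.1), the likelihood ratio test, the earlier form of the quasi-likelihood test (chosen after seeing the data), other size factors, total counts, no filter, 1 fit for all days, an FDR of 0.05 with no fold limit, a replicate block and leaving out each heart. At D21 all 4 correlations between same-numbered EAM and control hearts were over 0.1 (0.101 to 0.307). They ran from -0.0933 to 0.407 at D10 and from -0.105 to 0.0426 at D15. No main test took the numbers as pairs, and the replicate block was run only as an alternative. The genes and lists were chosen with earlier results of these data known. Genes named were the 10, Ptprc, up to 6 called list genes a day by size, the 2 closest genes by correlation (1 of these is not reported here), and markers. Promoters came from RefSeq tables and exon lengths from GENCODE M21. Intervals and limits from counts cover counting error only.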

Additional observations from a re-analysis of the deposited data

Results flagged for a closer look

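In 6 of 60 groups of 4 hearts 1 heart lay far from the other 3 by Dixon's criterion. Chance gives about 5% for independent groups with normal spread. The 10 genes were read in the same hearts, so these groups are not independent and the shares cannot be compared. At D10, EAM replicate 1 was high for Pla2g4a at 33.8 CPM (others 7.92 to 11.1) and for Ptgs2 at 26.8 CPM (others 4.12 to 6.90), and that heart also had the highest Ptprc level of its group, 194 CPM. D15 EAM replicate 2 was high for Ptgs1 at 38.9 CPM (others 26.5 to 28.4). D21 EAM replicate 1 was high for Ltc4s at 4.29 CPM (others 2.43 to 2.61), and it had the highest B cell (8.77 CPM against 2.15 to 2.67), platelet (51.4 against 21.2 to 29.4), mesothelial (50.7 against 14.2 to 24.3), eosinophil (2.56 against 0.401 to 2.37) and monocyte and macrophage (4639 against 1385 to 4296) marker sums of its group. Among controls, D21 replicate 3 was low for Pla2g4a at 9.32 CPM (others 10.6 to 10.8), and D15 replicate 3 was high for Ptgis at 31.9 CPM (others 26.6 to 27.4).

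By edgeR's quasi-likelihood test, the EAM effect differed between D10 and D15 by 0.96 on the log2 scale for Ptges (adjusted p = 0.00607) and by 2.10 for Alox5ap (adjusted p = 0.00728). Between D15 and D21 it differed by -0.98 for Ptges (adjusted p = 0.00849).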

How the results depend on the processing

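Of the 10 genes, Pla2g4a, Ptgs2, Ptges and Alox5ap were called at D15 under each alternative run. The D15 count was 4 to 6, except 8 with an FDR of 0.05 and no fold limit, and 4 to 6 with 1 heart left out. At D21 the count of 1 became 3 with an FDR of 0.05 and no fold limit (Alox5, Alox5ap and Hpgds), 0 with limma-voom, 0 with total counts, and 0 to 2 with 1 heart left out. At D10 it stayed 0 in each alternative. From D10 to D15 the count of 1 gene whose effect differed became 3 with DESeq2, 2 with RLE size factors, 2 with the likelihood ratio test, 3 with total counts and 0 to 4 with 1 heart left out. From D15 to D21 the count of 0 became 1 with DESeq2, 1 with the likelihood ratio test, 1 with total counts and 0 to 2 with 1 heart left out. The causes of these changes were not tested. With the replicate block, the D10 to D15 count was 2 (Pla2g4a at 1.47, adjusted p = 0.00956, joined Alox5ap), and the block left the counts at 0 for D10, 4 for D15 and 1 for D21. The adjusted p of Alox5ap at D21 ran from 1.83e-06 to 0.0366 over its 18 alternatives. With total counts, the median log2 fold change of all genes at D15 was 0.17 in place of 0.016, that of the D10 to D15 difference 0.11 in place of -0.032, and that of the D15 to D21 difference -0.15 in place of -0.00080.

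None of the values whose sign turned was called. Alox5 at D10 (-0.00096) was 0.0081 with DESeq2, 0.010 with RLE, 0.011 in the fit of 24, 0.0079 with no filter, 0.045 with total counts and -0.066 to 0.095 with 1 heart left out. Alox5 at D15 was 0.020 with total counts. With 1 heart left out, Hpgds at D10 ran from -0.28 to 0.046, Ltc4s at D15 from -0.19 to 1.02, Ptgs1 at D21 from -0.13 to 0.28 and Ltc4s at D21 from -0.12 to 0.19. The differences of effects ran from -0.019 to 1.14 for Ltc4s from D10 to D15, from -0.85 to 0.32 for Ltc4s from D15 to D21, and from -0.40 to 0.035 for Hpgds from D15 to D21. Ltc4s had 29 to 274 reads in the D15 EAM hearts, and the lowest count of the 10 genes in a heart was 25 reads, for Ptgs2 in D21 EAM replicate 3.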
